A study of Mus musculus with 11 samples.

Results

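The UDP-glucuronosyltransferases (UGT), cytosolic sulfotransferases (SULT) and soluble glutathione transferases (GST) were examined in the livers of AMLN *ob/ob*-MASH mice given INT-767 or vehicle. Members were the genes of the count table whose symbol begins with Ugt, Sult or Gst followed by a subfamily letter or number of these enzymes, with pseudogene names left out. This gave 62 of 46603 genes, of which 22 were UGT, 19 were SULT and 21 were GST genes. Enough reads for a test were present for 40 of them.

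Each enzyme family links a water-soluble group to a lipophilic molecule, so that it can leave the hepatocyte in bile or urine. The UGT enzymes of the endoplasmic reticulum transfer glucuronic acid from UDP-glucuronate, the SULT enzymes of the cytosol transfer sulfate from the activated donor PAPS, and the GST enzymes join glutathione to reactive electrophiles. Bile acids, bilirubin, steroids, thyroid hormones, products of lipid peroxidation and many drugs are cleared this way, and the nuclear receptors FXR, PXR and CAR and the stress sensor NRF2 are known regulators of members in liver.

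Whole-liver RNA was sequenced from 11 male B6.V-Lepob/JRj (ob/ob) mice, which lack leptin and become obese. From 5 to 6 weeks of age all were fed the AMLN diet, which is high in trans-fat, fructose and cholesterol, and after 15 weeks on it, and a biopsy of the liver, they were dosed daily for 8 weeks while the diet went on. The 7 vehicle mice (Vehicle 1 to 7) received carboxymethyl cellulose, and the 4 INT-767-treated mice (INT-767 1 to 4) received the compound, a semisynthetic bile acid analog that activates FXR and the membrane receptor TGR5, at 10 mg/kg. No lean or chow-fed group was analysed here, so that both groups share the mutation, the diet and the biopsy. Each library is the left lateral lobe of 1 mouse, and between 7381211 and 16022459 reads were counted per liver. In such bulk tissue, fewer cells of a type and less RNA per cell cannot be told apart. Albumin was the most abundant of the hepatocyte markers in these livers, and no hepatocyte marker was at 0.

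Libraries differed within the vehicle group as well as between the groups. Over 13835 tested genes, the difference of each liver from the mean liver was set against GC content, and Spearman's rho was -0.43 in Vehicle 1 and -0.13 in Vehicle 7, against 0.45, 0.33, 0.36 and 0.30 in Vehicle 3, 4, 5 and 6 and 0.01 in Vehicle 2. It was -0.06, -0.26, -0.16 and -0.24 in INT-767 1 to 4. These coefficients describe genes of 1 library and carry no p. Genes of low GC content therefore read higher in Vehicle 1 and 7 and in the INT-767 livers, and the fit was repeated with a per-library trend on GC content and transcript length removed. This moved the log2 fold change of 17 of the 40 tested members by more than 0.2, each of them downward, and their values from both fits are given below, as are those of every called member.

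**Figure D1:**
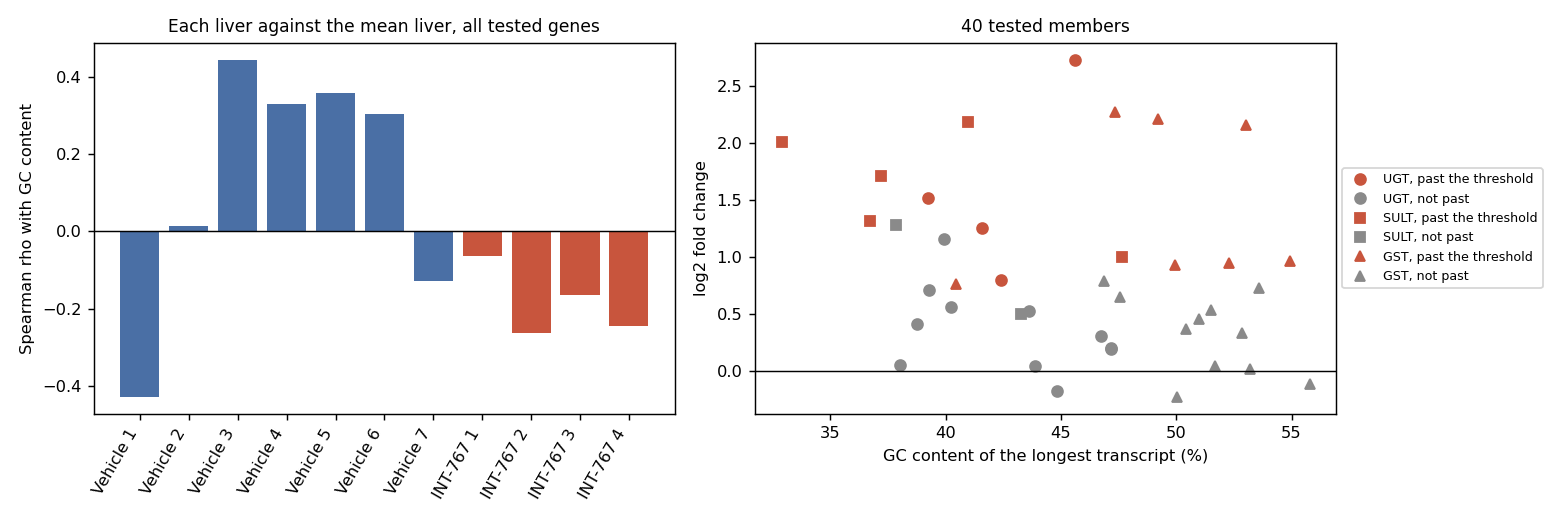
Left, Spearman's rho between GC content and each liver's difference from the mean liver on the log2(CPM + 1) scale, over 13835 genes (blue, vehicle, red, INT-767). Right, log2 fold change of the 40 tested members against the GC content of the longest transcript in percent, by family. Vehicle 1 lies at -0.43 and Vehicle 3 at 0.45, and the SULT members past the threshold include the member of lowest GC content.

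INT-767-treated mice had higher RNA levels of many of these enzymes, in each of the 3 families. Of the 40 tested members, 16 were higher with an adjusted p under 0.05 (edgeR's quasi-likelihood test with Benjamini-Hochberg adjustment over all 13880 tested genes), while 5.04% of all tested genes were higher. None was lower, while 4.68% of all tested genes were lower and 9.72% passed in either direction. At an unadjusted p under 0.05 there were 24 members, all higher, beside 32.9% of all tested genes in either direction. DESeq2 called 20 higher and none lower, while it called 10.4% of all tested genes higher and 9.86% lower, or 20.3% in either direction. The 16 comprised 4 of 15 tested UGT, 5 of 7 tested SULT and 7 of 18 tested GST genes. A log2 fold change above 0 was found for 37 members, and for 49.4% of all tested genes, and the median over the members was 0.72 beside -0.01 over all tested genes. The 2 groups of livers did not overlap for 9 members, all higher with INT-767, while this held for 3.87% of all genes tested, and 3.65% did not overlap with INT-767 lower.

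The count filter let 39 of the 40 members pass on the vehicle livers alone. The median log2 fold change over these 39 was 0.72, and 15 of them were called. *Sult2a7* passed only through the INT-767 livers and had to differ. Removal of the GC and length trend left 14 members called, of which 13 were among the 16. It lowered the median over the 40 members to 0.44, with 33 above 0, beside a median of 0.01 over all genes in that fit. All 14 were higher, while in that fit 7.76% of all genes were higher and 5.86% lower, or 13.6% in either direction. *Gsta3*, *Sult2a7* and *Sult2a8* were lost and *Gstz1* was gained. Single livers weighed on the counts as well. With INT-767 2 left out, 7 of the 16 remained called, *Ugt1a9*, *Sult1a1*, *Sult1b1*, *Gsta2*, *Gsta4*, *Gstm3* and *Gstt1*, which were also called in each of the other fits that left out 1 liver, and without Vehicle 1 all 16 remained and 22 members were called. The number of called genes in the whole table moved in the same way, from 1349 to 274 without INT-767 2 and to 3276 without Vehicle 1.

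**Figure D2:**
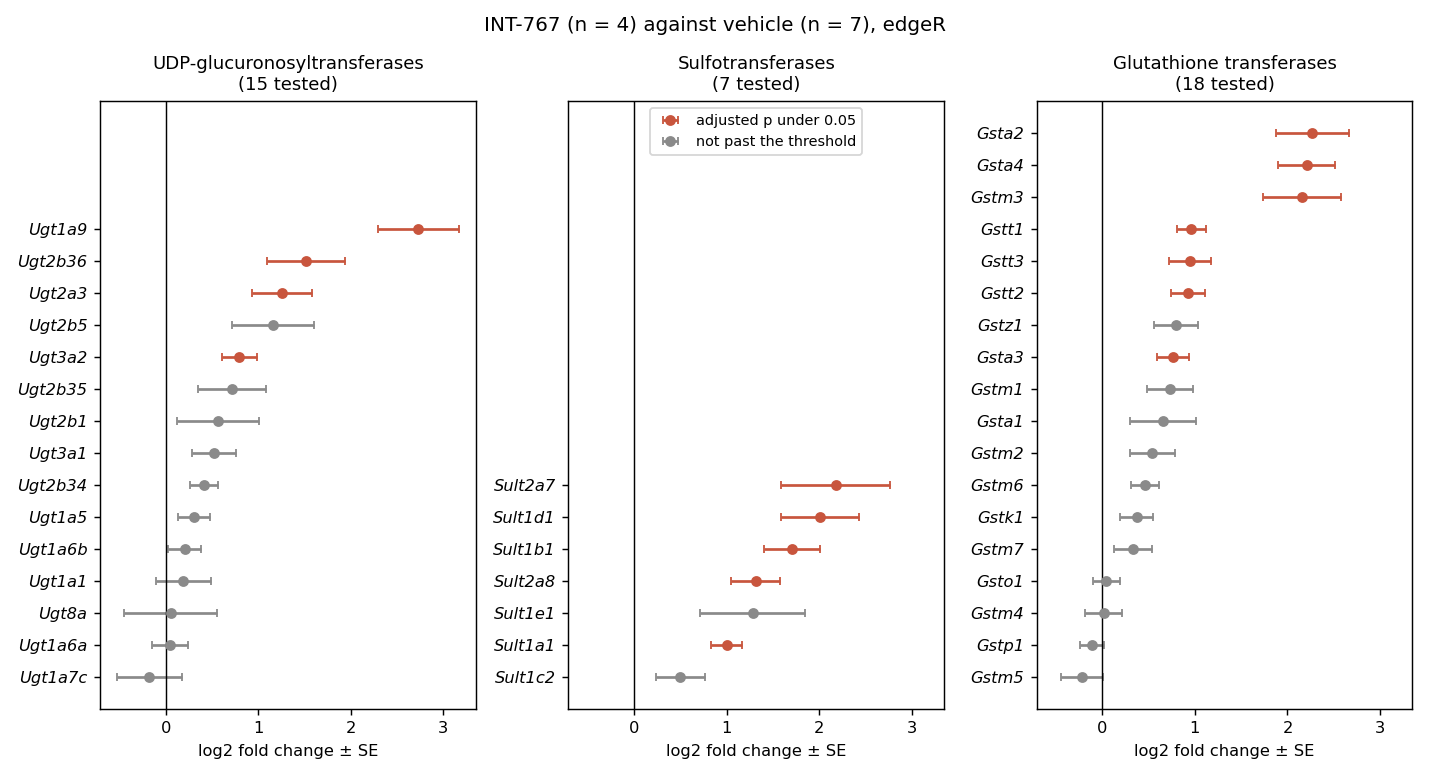
Log2 fold change with its SE (INT-767, n = 4, against vehicle, n = 7; edgeR) for the 15 UGT, 7 SULT and 18 GST genes tested, red where the adjusted p was under 0.05. Bars of 3 members lie left of 0 at their centre, *Ugt1a7c*, *Gstm5* and *Gstp1*, and none of these passed the threshold.

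Reads of a gene per 1000000 reads of the library, with the library size scaled by TMM factors (CPM), were summed over all members of a family in each liver. Summed GST level was 4070.0 ± 440.5 CPM with vehicle (SD, n = 7) and 7537 ± 2282 CPM with INT-767 (SD, n = 4), a ratio of means of 1.85. The 4 INT-767 livers had 9413, 9348, 6699 and 4687 CPM, and the vehicle livers had between 3512 and 4657 with a median of 4082. All INT-767 livers lay above all vehicle livers, but INT-767 4 only narrowly so.

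Summed SULT level was 499.7 ± 151 CPM with vehicle and 1316 ± 398 CPM with INT-767, a ratio of 2.63. INT-767 1 to 4 had 1032, 1631, 916 and 1683 CPM, all above the vehicle range of 386 to 791 CPM (median 419.8). Summed UGT level was 2262 ± 922 CPM with vehicle and 4525 ± 1947 CPM with INT-767, a ratio of 2.00. Here the groups overlapped, since INT-767 1 and 3, at 2978 and 2791 CPM, lay below Vehicle 1 at 4063 CPM, and INT-767 3 also below Vehicle 7 at 2852 CPM. A few genes carried the sums. *Gstm1* held 37.1% of the mean GST sum with vehicle and 33.2% with INT-767, *Sult1a1* held 47.5% and 36.1% of the SULT sum, and *Ugt2b36* held 22.9% and 32.7% of the UGT sum.

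**Figure D3:**
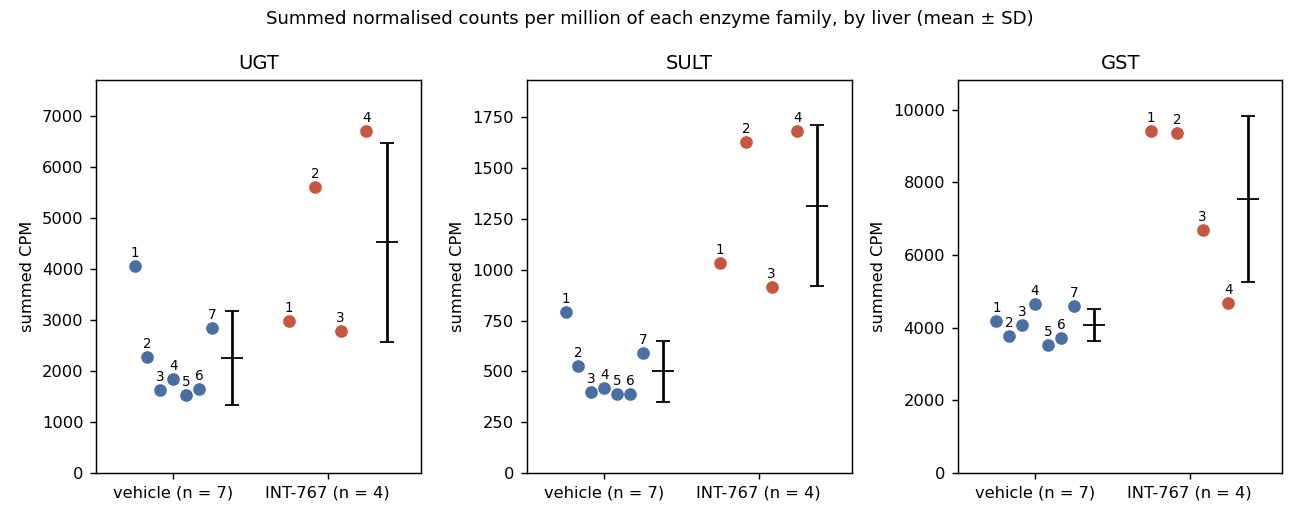
Summed TMM-scaled CPM of the UGT, SULT and GST members in each liver, with mean ± SD to the right of each group. GST and SULT sums of the INT-767 livers lie above every vehicle liver, and the UGT sums overlap through Vehicle 1 and 7.

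Of the 22 UGT genes, 4 rose, *Ugt1a9*, *Ugt2b36*, *Ugt2a3* and *Ugt3a2*, and the median log2 fold change over the 15 tested was 0.52, or 0.22 with the GC and length trend removed. The UGT1A locus at chr1:88055388-88220002 (GRCm38) is built from alternative first exons, each with its own promoter, which are spliced to a common set of 3′ exons. Substrates are bound by the part that the first exon encodes, so that the UGT1A1 enzyme handles bilirubin, UGT1A6 small phenols and UGT1A9 bulky phenols and many drugs. *Ugt1a9* had the largest fold change of the 40 members. It read 72.8, 30.5, 16.3 and 13 CPM in INT-767 1 to 4, against 3.05 to 9.17 CPM in the vehicle livers (median 4.26). Every INT-767 liver exceeded every vehicle liver, and INT-767 1 stood well above the other three. On the log2 scale the difference was 2.73 (SE 0.44, edgeR adjusted p = 0.0047), and it was 2.65 with the GC and length trend removed.

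The other 5 tested UGT1A genes had log2 fold changes between -0.18 and 0.31. *Ugt1a1* was at 57.5 ± 17.7 CPM with vehicle and 65.8 ± 22.4 CPM with INT-767, or 0.19 higher on the log2 scale (SE 0.30, edgeR adjusted p = 0.658), and the log2 fold change of *Ugt1a6a* was 0.05. These counts carry an ambiguity of the locus. The window below is the first 75 bases, 1 read length, of the first of 3 exons held by all 9 UGT1A genes in the annotation, and a read from it cannot be assigned to 1 of them. It is shown because between 51.2% and 74.8% of all 75-base windows of these genes occur in another gene. For *Ugt1a9* the share was 59.4%. The exons also overlap the antisense gene *Gm20528*, and whether counting used strand is not given in the sources used here.
UGT1A common exon, chr1:88215044-88215118, plus strand: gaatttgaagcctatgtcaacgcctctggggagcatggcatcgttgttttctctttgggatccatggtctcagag

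UGT2B enzymes conjugate steroids and bile acids, and their genes lie with *Ugt2a3* and 3 SULT genes in 1 cluster at chr5:86889767-87591594. *Ugt2b36*, which per length of exon was the most abundant UGT (251 CPM per kilobase with vehicle, 719 with INT-767), read 771, 1951, 770.4 and 2431 CPM in INT-767 1 to 4. The vehicle livers had 298 to 1101 CPM with a median of 372. The groups overlapped, because Vehicle 1 was above INT-767 1 and 3. It rose by 1.52 on the log2 scale (SE 0.42, edgeR adjusted p = 0.0414), and by 0.93 with the GC and length trend removed.

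*Ugt2b5*, the next most abundant, did not pass. Its livers had 496, 1000.2, 423 and 1624 CPM with INT-767 and 215 to 874 CPM with vehicle (median 282), and INT-767 1 and 3 lay within the vehicle range. The difference on the log2 scale was 1.16 (SE 0.44, edgeR adjusted p = 0.0997), and 0.61 with the trend removed (adjusted p = 0.085). *Ugt2b5* shares 30.4% of its windows with other genes, mostly *Ugt2b38*. *Ugt2a3*, whose product conjugates bile acids, rose from a vehicle range of 87.1 to 283 CPM (median 112) to 242, 527, 258 and 406 CPM. Vehicle 1 was above INT-767 1 and 3, and the log2 fold change was 1.26 (SE 0.32, edgeR adjusted p = 0.0325), which came to 0.88 with the trend removed. Without INT-767 2 or INT-767 4, neither *Ugt2b36* nor *Ugt2a3* passed, and they were called in 4 and in 5 of the 11 fits that left out 1 liver.

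*Ugt3a2*, which uses other UDP sugars than glucuronate, was the called UGT of chromosome 15. It read 315, 550.3, 350.0 and 407 CPM with INT-767 and 178 to 311 CPM with vehicle (median 224). No liver overlapped, though INT-767 1 and Vehicle 1 were close. The log2 fold change of 0.80 (SE 0.19, edgeR adjusted p = 0.0249) came to 0.46 with the trend removed. It did not pass without Vehicle 5, Vehicle 6 or INT-767 2 (adjusted p up to 0.114). Its neighbour *Ugt3a1* had a log2 fold change of 0.52 (adjusted p = 0.15), and *Ugt2b34*, *Ugt2b1* and *Ugt2b35* of the chromosome 5 cluster had 0.42, 0.57 and 0.72 without passing. With the trend removed these 4 genes were at 0.28, 0.08, 0.16 and 0.31. *Ugt8a*, which makes galactosylceramide and conjugates no drug, was at 3.52 ± 2.31 and 3.63 ± 2.37 CPM, a log2 fold change of 0.05 that turned to -0.36 with the trend removed, and passed in neither fit. Of the UGT genes that were not tested, *Ugt2a1* had no read, *Ugt2a2* had 1, and *Ugt1a2*, *Ugt1a8*, *Ugt1a10*, *Ugt2b37* and *Ugt2b38* had between 16 and 84 reads over all livers.

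Of the 19 SULT genes, 7 were tested and 5 rose, with a median log2 fold change of 1.31. Without *Sult2a7*, which passed the count filter only through the INT-767 livers, it was 4 of 6, with a median of 1.30. With the GC and length trend removed, 3 of the 7 were called and the median was 0.83. *Sult1a1*, a phenol sulfotransferase, was the most abundant per length (158 CPM per kilobase with vehicle, 315 with INT-767). It read 569.5, 555, 468 and 309 CPM in INT-767 1 to 4. The vehicle livers lay close together between 211 and 256 CPM, with a median of 246. All INT-767 livers were above them, and the log2 fold change was 1.00 (SE 0.16, edgeR adjusted p = 0.00486). It was called in all 11 fits that left out 1 liver, and at 0.83 with the trend removed.

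Among the 3 SULT genes of the chromosome 5 cluster, *Sult1d1*, known in mice for catecholamines, and *Sult1b1*, known for thyroid hormones, rose. *Sult1d1* read 222, 597, 237 and 913 CPM with INT-767 and 72.0 to 238 CPM with vehicle (median 86.4). Vehicle 1 was just above INT-767 1 and 3. The log2 fold change of 2.01 (SE 0.42, edgeR adjusted p = 0.0148) came to 1.07 with the trend removed, where it still passed (adjusted p = 0.00125), and it did not pass without INT-767 2 (adjusted p = 0.0619). *Sult1d1* has the lowest GC content of the tested members at 32.9%. *Sult1b1* read 41.3, 114, 47.4 and 71.6 CPM with INT-767 and 14.1 to 33.1 CPM with vehicle (median 17.7), with no overlap. On the log2 scale it rose by 1.71 (SE 0.30, edgeR adjusted p = 0.00722), and by 1.13 with the trend removed.

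*Sult1e1*, the estrogen sulfotransferase, lies beside them. It read 132, 294, 91.5 and 323 CPM with INT-767 and 26.1 to 247 CPM with vehicle (median 52.0), and Vehicle 1 exceeded INT-767 1 and 3. Its log2 fold change of 1.28 (SE 0.57) did not pass (edgeR adjusted p = 0.139), and came to 0.67 with the trend removed. *Sult1c2* had a log2 fold change of 0.50 (adjusted p = 0.201), and 0.21 with the trend removed.

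The SULT2A genes of chromosome 7 act on bile acids and hydroxysteroids, and most are expressed in female rather than male mouse liver. Of 8, 6 had between 1 and 21 reads over all these male livers. *Sult2a8*, a bile acid sulfotransferase of mouse liver, was the abundant one. It read 46.5, 59.4, 56.2 and 54.4 CPM with INT-767 and 9.26 to 31.7 CPM with vehicle (median 21.8). The groups did not overlap, the INT-767 livers were close together, and Vehicle 1 was the lowest liver, unlike for the genes of chromosome 5. It rose by 1.31 on the log2 scale (SE 0.27, edgeR adjusted p = 0.0128). With the GC and length trend removed it was 0.54 and did not pass (adjusted p = 0.379), nor did it pass without INT-767 2 (adjusted p = 0.059).

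*Sult2a7* had 35 reads over the 7 vehicle livers and 82 over the 4 INT-767 livers. This came to 1.08, 3.32, 2.39 and 1.80 CPM with INT-767 and 0.0727 to 1.62 CPM with vehicle (median 0.254), where Vehicle 4 was above INT-767 1. The log2 fold change of 2.18 (SE 0.59, edgeR adjusted p = 0.0378) passed in 3 of the 11 fits that left out 1 liver. It was 1.47 with the trend removed and did not pass (adjusted p = 0.13), and the gene entered the test only through its INT-767 livers. *Sult1c1* and *Sult3a1* had no read, and *Sult2b1*, *Sult4a1*, *Sult5a1* and *Sult6b1* had between 16 and 62.

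Of the 21 GST genes, 18 were tested and 7 rose, *Gsta2*, *Gsta3*, *Gsta4*, *Gstm3*, *Gstt1*, *Gstt2* and *Gstt3*. The median log2 fold change was 0.69, or 0.44 with the trend removed. The alpha class reduces lipid peroxides and conjugates their aldehyde products. *Gsta4*, whose enzyme takes 4-hydroxynonenal, read 258, 218, 147 and 61.2 CPM in INT-767 1 to 4 and 23.5 to 51.4 CPM with vehicle (median 37.6). The groups did not overlap, and INT-767 4 was nearest to vehicle. This was a log2 fold change of 2.21 (SE 0.31, edgeR adjusted p = 0.00318), and 2.02 with the trend removed. None of its windows occurs in another gene.

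*Gsta2* read 111, 132, 52.8 and 32.9 CPM with INT-767 and 8.53 to 29.5 CPM with vehicle (median 13.9), without overlap. This came to 2.27 on the log2 scale (SE 0.40, edgeR adjusted p = 0.00664), or 2.06 with the trend removed, and 36.6% of its windows occur in another gene, most of them in *Gsta1*. *Gsta1* itself, with 84.7% of its windows elsewhere, had a log2 fold change of 0.65 (SE 0.36, adjusted p = 0.211), and the share of reads between the pair is uncertain. *Gsta3*, the abundant alpha gene, which lies alone on chromosome 1, had a log2 fold change of 0.76 (SE 0.17, edgeR adjusted p = 0.0206), and 0.36 with the trend removed, where it did not pass (adjusted p = 0.316). Without Vehicle 6 or INT-767 2 it did not pass either (adjusted p up to 0.107).

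In the mu class, 1 of 7 genes rose. *Gstm3* read 2107, 1339, 837 and 295 CPM in INT-767 1 to 4 and 146 to 451 CPM with vehicle (median 240.1). INT-767 4 lay inside the vehicle range, below Vehicle 1 and 7. Its log2 fold change was 2.16 (SE 0.42, edgeR adjusted p = 0.0109), and 2.11 with the trend removed, and 21.6% of its windows occur in another gene, most often the gene *Gm8834*. *Gstm1*, per length the most abundant of all 62 members (1024 CPM per kilobase with vehicle, 1701 with INT-767), read 3681, 2911, 2272 and 1158 CPM with INT-767 and 1266 to 1809.9 CPM with vehicle (median 1467). INT-767 1 to 3 were above every vehicle liver and INT-767 4 was below every one. A log2 fold change of 0.73 (SE 0.25) did not pass (edgeR adjusted p = 0.0758), and without INT-767 4 it did (adjusted p = 0.0106). *Gstm6* was at 0.46 (adjusted p = 0.0712), and *Gstm2*, *Gstm4*, *Gstm5* and *Gstm7* lay between -0.22 and 0.54 without passing.

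All 3 tested theta genes rose. Theta enzymes handle small halogenated compounds. *Gstt1* read 283, 386, 305 and 214 CPM with INT-767 and 135 to 186 CPM with vehicle (median 152), without overlap, and its log2 fold change was 0.96 (SE 0.16, edgeR adjusted p = 0.00516). *Gstt3* read 38.6, 53.2, 27.7 and 21.1 CPM with INT-767 and 13.4 to 23.2 CPM with vehicle (median 17.8), and INT-767 4 lay inside the vehicle range. Its log2 fold change was 0.95 (SE 0.23, edgeR adjusted p = 0.0251). *Gstt2* had one of 0.93 (SE 0.18, edgeR adjusted p = 0.0113). Removal of the GC and length trend left the 3 at 0.83, 0.95 and 0.94, in the order *Gstt1*, *Gstt3*, *Gstt2*, and all passed. *Gstt2* did not pass without INT-767 2 (adjusted p = 0.0567), and *Gstt3* without Vehicle 5, Vehicle 6 or INT-767 2 (adjusted p up to 0.127).

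The remaining GST classes had no called gene. *Gstz1*, which isomerises maleylacetoacetate in tyrosine breakdown, was at 563 ± 141 CPM with vehicle and 976 ± 335 CPM with INT-767, and its log2 fold change of 0.79 (SE 0.24, edgeR adjusted p = 0.0533) missed the threshold, which it passed with the trend removed (0.85, adjusted p = 0.0377). *Gstp1*, the main pi gene, was at 122 ± 14 and 113 ± 10.6 CPM, with a log2 fold change of -0.11 (SE 0.13, adjusted p = 0.545). *Gsto1*, which reduces dehydroascorbate, had one of 0.04, and mitochondrial *Gstk1* one of 0.37. *Gsto2*, *Gstp2* and *Gstt4* were not tested.

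**Figure D4:**
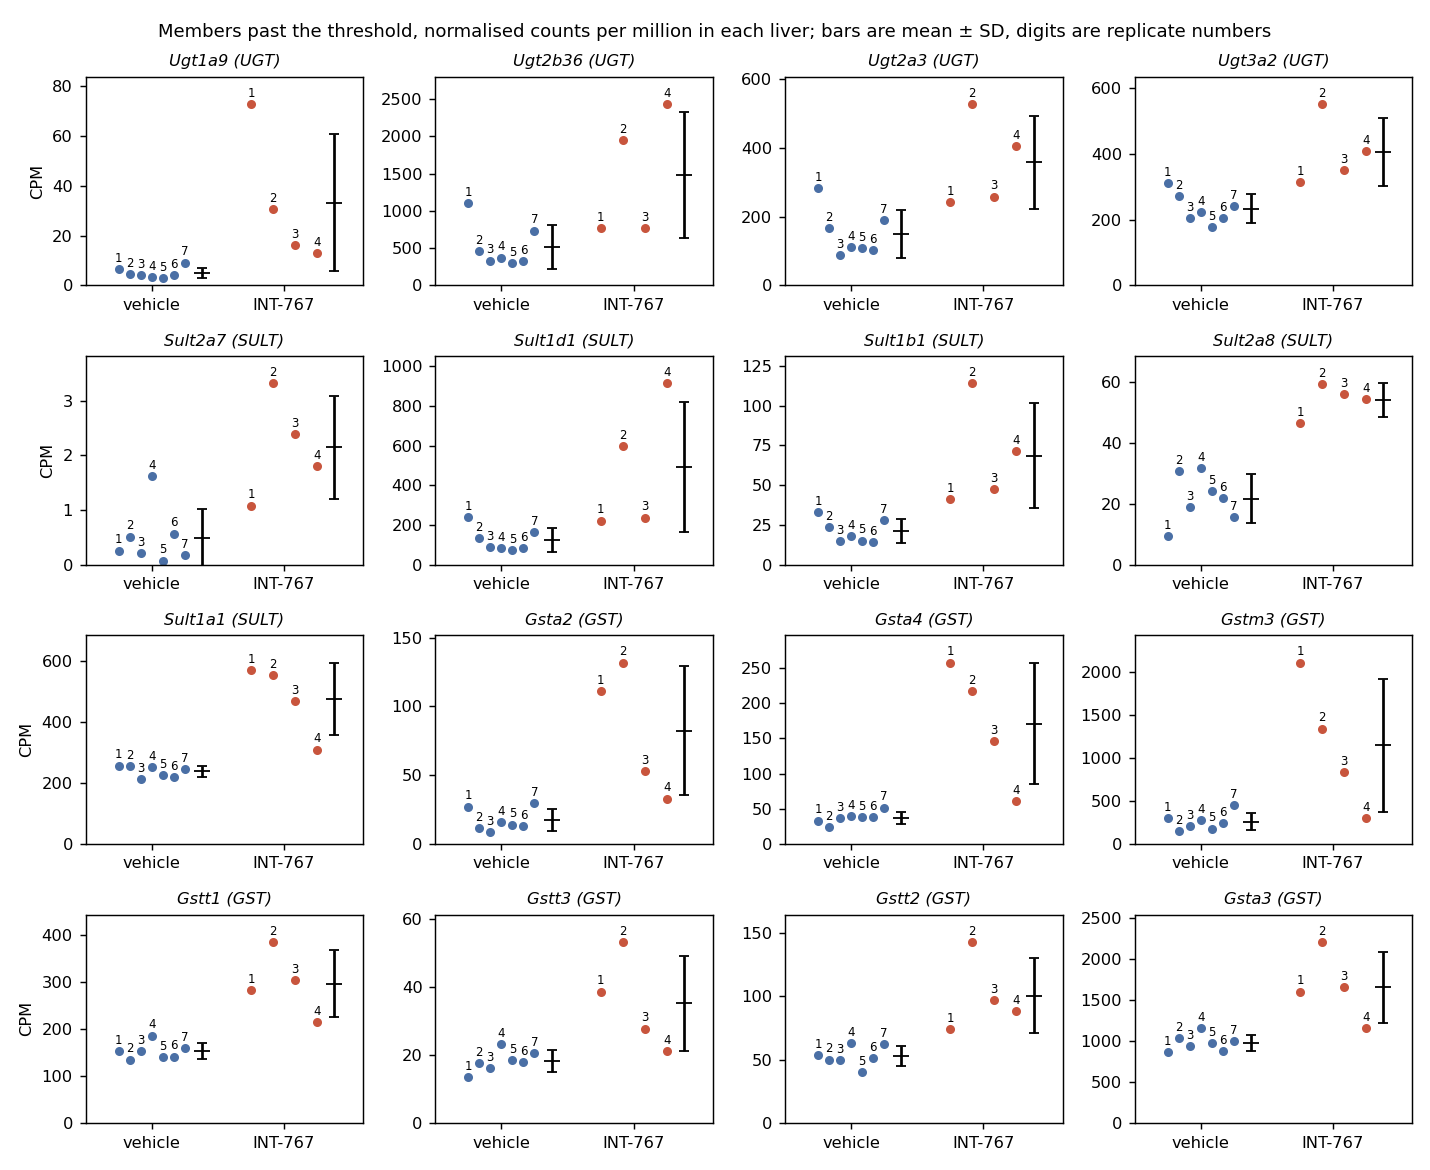
CPM in each liver for the 16 members past the threshold, each panel with its own linear axis from 0, replicate numbers above the points and mean ± SD to the right. Vehicle 1 is the highest vehicle liver for *Ugt2b36*, *Ugt2a3*, *Sult1d1* and *Sult1b1*, and INT-767 4 is the lowest INT-767 liver for *Ugt1a9*, *Gsta2*, *Gsta4* and *Gstm3*.

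RefSeq promoter windows (GRCm38.p6), from 250 bases before to 50 bases after the start, were found for 54 of the 62 members, 12 of them called. The called members without a window were *Gsta4*, *Gstt2*, *Sult2a7* and *Ugt3a2*. The letters AGGTCA, the half-site that many nuclear receptors bind, occurred on either strand in 12 of the 54, or 22.2%, beside 18.1% of all 27025 genes with a window. Of the 12 called members 4 held it, and of the 23 tested but uncalled members 6. GTTAAT, the half-site of the hepatocyte factor HNF1, occurred in 13, or 24.1%, beside 8.24% of all genes. It was in 5 of the 12 called, 3 of the 23 tested but uncalled and 5 of the 19 untested members. TGACNNNGC, the core of the antioxidant response element that NRF2 binds, occurred in 3, or 5.56%, beside 14% of all genes. *Gsta3* was the called member with it, and 2 of the 23 tested but uncalled members held it. Sequence outside these windows was not searched, so that the shares do not cover sites further from the start. The motifs do not overlap one another in the windows printed, a match is not a binding site, and neighbours in a gene cluster can share sequence by descent. Windows of called members of each family are shown so that the matches can be seen in place, and capitals mark a match to any of the 3 motifs on either strand.
Ugt1a9, chr1:88070529-88070828, plus strand: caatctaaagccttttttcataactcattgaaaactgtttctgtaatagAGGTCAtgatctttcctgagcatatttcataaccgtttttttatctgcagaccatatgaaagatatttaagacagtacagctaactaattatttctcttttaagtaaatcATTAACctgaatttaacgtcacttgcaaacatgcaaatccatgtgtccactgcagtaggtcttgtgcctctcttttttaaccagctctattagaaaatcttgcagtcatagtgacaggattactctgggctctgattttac
Sult1b1, chr5:87538146-87538445, minus strand: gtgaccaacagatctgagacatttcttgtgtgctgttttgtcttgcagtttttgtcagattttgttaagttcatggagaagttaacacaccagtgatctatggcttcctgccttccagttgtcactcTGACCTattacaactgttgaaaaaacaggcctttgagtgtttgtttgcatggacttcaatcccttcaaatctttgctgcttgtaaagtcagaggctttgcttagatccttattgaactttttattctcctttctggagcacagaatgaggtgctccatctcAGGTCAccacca
Sult1d1, chr5:87568957-87569256, minus strand: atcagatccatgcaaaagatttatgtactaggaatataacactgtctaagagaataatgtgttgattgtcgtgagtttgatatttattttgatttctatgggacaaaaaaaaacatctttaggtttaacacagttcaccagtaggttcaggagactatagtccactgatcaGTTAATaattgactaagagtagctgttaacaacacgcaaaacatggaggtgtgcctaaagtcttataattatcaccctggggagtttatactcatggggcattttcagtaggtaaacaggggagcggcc
Gsta3, chr1:21240335-21240634, plus strand: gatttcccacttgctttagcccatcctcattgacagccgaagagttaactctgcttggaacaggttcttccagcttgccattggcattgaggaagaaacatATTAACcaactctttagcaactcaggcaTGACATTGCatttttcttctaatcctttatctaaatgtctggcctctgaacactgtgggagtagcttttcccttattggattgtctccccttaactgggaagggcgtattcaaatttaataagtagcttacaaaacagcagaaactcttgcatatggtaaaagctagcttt

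In these windows *Ugt1a9* held 1 nuclear receptor half-site, beginning 201 bases before the start, and 1 HNF1 half-site, 91 bases before it. *Sult1b1* held 2 nuclear receptor half-sites, 1 on each side of the start, and *Sult1d1* 1 HNF1 half-site. *Gsta3* held the antioxidant response element core 121 bases before the start and an HNF1 half-site 149 bases before it. Of these 4 genes, *Gsta3* had the smallest fold change.

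The 4 INT-767 livers did not rank alike in all members, and in some gene clusters the same livers were at the top for most genes. In the cluster on chromosome 5, which spans 701.8 kb and holds 9 tested members of both the UGT and SULT families, INT-767 2 and 4 were the highest pair for 9 of 9 genes, as they were for 32.1% of all tested genes. Vehicle 1 was the highest vehicle liver for 9 of 9, as for 31.4% of all tested genes. In the alpha cluster of chromosome 9 and the mu cluster of chromosome 3, with 10 tested genes between them, INT-767 1 and 2 were the highest pair for 8, as for 10.7% of all tested genes, and INT-767 4 was the lowest for 9, as for 32.4%. *Ugt1a9* and *Sult1a1*, like *Gsta4* and *Gstm3*, ranked the livers from INT-767 1 down to INT-767 4. The UGT1A cluster had no common order. Its 6 tested genes ranked the INT-767 livers in 6 different ways, and INT-767 1, 2 and 3 were the highest for 2, 1 and 3 of them. Neighbouring genes are not independent, and the order was seen in these livers before it was counted, so that these shares are given with no test.

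The trend on GC content moved with the first of these orders. Median GC content was 39.2% in the chromosome 5 cluster, 47.5% in the alpha cluster and 52.9% in the mu cluster, beside 49.4% over all tested genes. With the GC and length trend removed, INT-767 2 and 4 were the highest pair for 6 of the 9 genes of chromosome 5, as for 30.8% of all genes in that fit, and Vehicle 1 was the highest vehicle liver for 6, as for 27.5%. The median log2 fold change of the 9 fell from 1.26 to 0.67 while the same 4 genes were called. For the 10 alpha and mu genes, INT-767 1 and 2 were then the highest pair for 7 and INT-767 4 the lowest for 9, as for 14% and 32.5% of all genes.

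**Figure D5:**
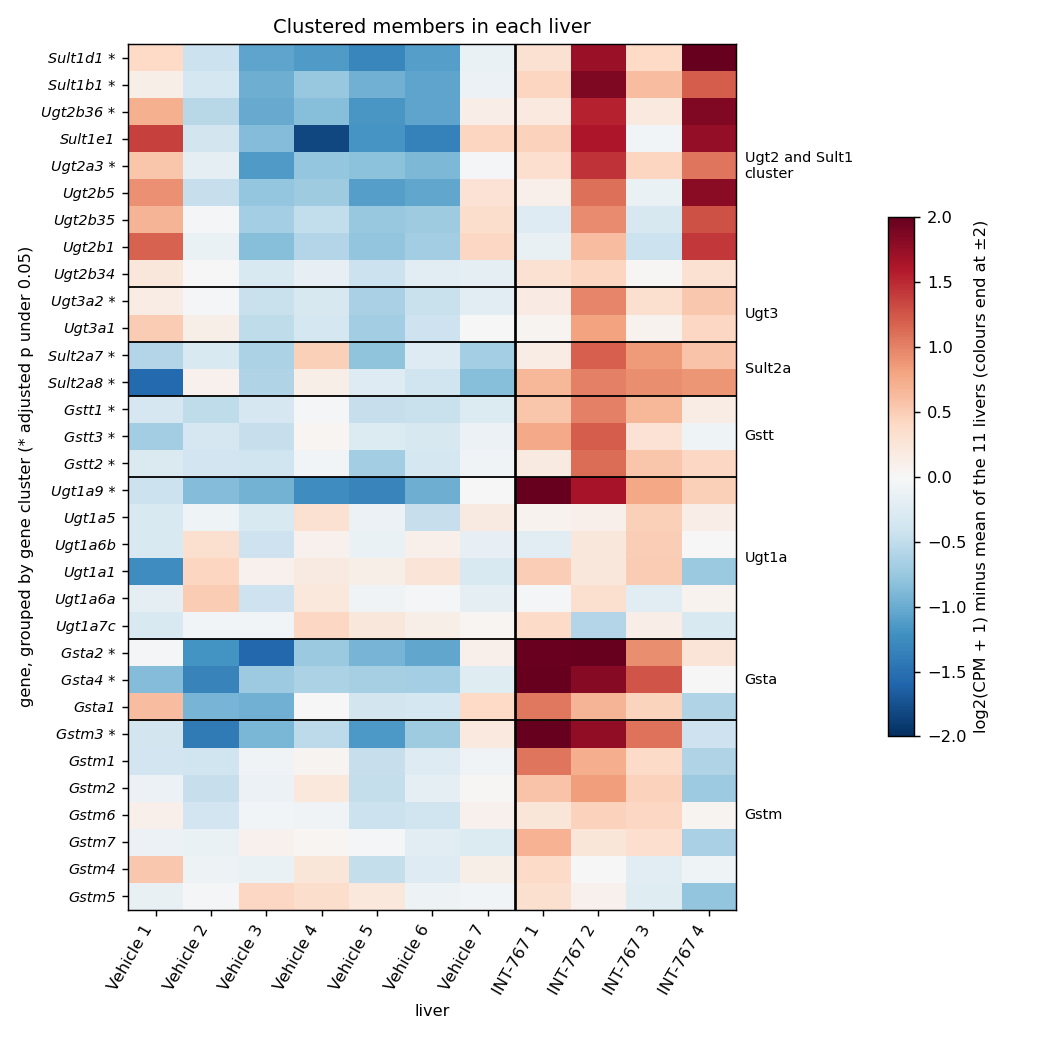
Log2(CPM + 1) of each clustered tested member minus its mean over the 11 livers, by gene cluster and liver, with members past the threshold starred. In the Ugt2 and Sult1 cluster INT-767 2, INT-767 4 and Vehicle 1 are high, and in the Gsta and Gstm clusters INT-767 4 is close to vehicle.

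Genes that supply, break down or export conjugates were read beside the families, from lists that hold no member. Over 58 such genes, 56 were tested, 7 rose and 3 fell, or 12.5% and 5.36%, beside 5.04% and 4.68% of all tested genes. A further 28 genes are regulators of the families and other targets of these regulators, of which 27 were tested, 3 rose and 2 fell. Over these pathway genes together, 10 of 83 rose and 5 fell, and with the GC and length trend removed 12 and 5, among which *Ggt5* and *Stat5b* (0.77 and 0.60 on the log2 scale) and *Abcc1* (-0.89) were gained, *Arsa* was lost and *Chac2* came to 0.59. UDP-glucuronate supply had 0 of 6 genes called in either direction, with a median log2 fold change of 0.37, or 0.20 with the trend removed. *Ugp2*, which makes UDP-glucose, was at 0.48 (SE 0.15, edgeR adjusted p = 0.0614), and at -0.0026 with the trend removed. In PAPS supply and sulfate handling, 1 of 7 rose, *Suox*, which oxidises sulfite to sulfate. It went from 105 ± 37.5 CPM with vehicle to 183, 334, 161 and 344 CPM, a log2 fold change of 1.29 (SE 0.28, edgeR adjusted p = 0.0189).

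Of 11 glutathione supply genes, 2 rose. *Cth*, which releases cysteine from cystathionine, read 552, 1212, 383 and 1100.4 CPM with INT-767 and 211 ± 130 CPM with vehicle, which differed on the log2 scale by 1.94 (SE 0.43, edgeR adjusted p = 0.0193). *Gclm*, the modifier subunit of glutamate-cysteine ligase, had one of 0.71 (adjusted p = 0.0307). Of 11 tested genes that take conjugates or glutathione apart, 3 rose and 1 fell. *Nat8*, which acetylates cysteine conjugates to mercapturates, was at 15.6, 47.5, 19.7 and 33.5 CPM with INT-767 and 8.73 ± 1.87 CPM with vehicle, a log2 fold change of 1.73 (SE 0.28, edgeR adjusted p = 0.0047). *Chac2* and *Ggt6* rose by 1.38 and 1.08, and the dipeptidase *Dpep2* fell by 1.42 (edgeR adjusted p = 0.0435, 0.0391 and 0.0148). The level of *Dpep2* was low, at 2.95 ± 0.55 CPM with vehicle and 1.08 ± 0.50 CPM with INT-767.

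Among other glutathione transferases, 1 of 5 tested fell, *Hpgds*, a prostaglandin D synthase, by 0.98, and among deconjugating enzymes 1 of 5 fell, the arylsulfatase *Arsa*, by 0.63 (edgeR adjusted p = 0.0296 and 0.0462). Of 11 exporters and carriers, *Abcb1a*, the drug efflux pump MDR1A, rose by 1.32 (adjusted p = 0.00528), and none of the MRP genes *Abcc1* to *Abcc6* passed before the trend was removed. None of 5 tested phase I target genes of AhR, CAR and PXR passed, though the list summed to 5715 ± 2790.3 CPM with vehicle and 12283 ± 6289 CPM with INT-767, mostly *Cyp3a11*.

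Among 14 regulators, 2 rose. *Nr0b2*, or SHP, a known FXR target, read 49.3, 63.0, 45.2 and 41.1 CPM with INT-767, above the vehicle range of 9.74 to 26.0 CPM, a log2 fold change of 1.54 (SE 0.25, edgeR adjusted p = 0.00474). *Nr1i2*, which encodes PXR, had one of 0.51 (adjusted p = 0.0491). *Nr1h4* (FXR), *Nr1i3* (CAR), *Ahr* and *Nfe2l2* (NRF2) had log2 fold changes of -0.25, 0.46, -0.31 and 0.13, with edgeR adjusted p = 0.232, 0.231, 0.189 and 0.523. Of 12 NRF2 target genes outside the families, 2 rose and 2 fell, and the median was -0.21. *Ces1g* and *Gclm* rose by 1.26 and 0.71, and *Hmox1* and *Srxn1* fell by 1.21 and 0.60 (edgeR adjusted p = 0.00329, 0.0307, 0.00689 and 0.0193).

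Since SULT2A genes differ between the sexes, genes with a known sex bias in liver were read as well. Over all tested genes, 5.04% were higher and 4.68% lower. Of 11 tested female-biased genes 3 rose, among them *Fmo2* and *Acot3*, by 1.23 and 1.11 on the log2 scale. Of 14 tested male-biased genes, *Elovl3* and *C8b* rose by 1.76 and 1.23 on the log2 scale, and *Cyp4a12a* and *C6* fell by 2.79 and 1.63. With the trend removed, 7.76% of all genes were higher and 5.86% lower. In that fit *Cux2* and *Abcd2* of the female-biased list also passed, at 2.41 and -0.84, and *Mup20* and *Mup3* of the male-biased list, at -1.46 and -1.08. Before the trend was removed, fold changes were above 0 for 7 of the 11 female-biased and 7 of the 14 male-biased genes.

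Markers of liver cell types moved beside the enzymes. Of 8 hepatocyte markers none passed. Their median log2 fold change was 0.55, or 0.45 with the GC and length trend removed, beside 0.72 and 0.44 over the 40 tested members. Their summed level, mostly *Alb*, was 99856, 100376, 83057 and 55907 CPM in INT-767 1 to 4 and 52759 to 69765 CPM with vehicle (median 58371). INT-767 4 had the lowest hepatocyte sum of the INT-767 livers, although *Apoa1* and *Asgr1* of that list were lowest in INT-767 1. It was the lowest of the 4 for 9 of 10 alpha and mu genes, but for 0 of 9 genes of the chromosome 5 cluster, where it was the highest for 6. Removal of the GC and length trend left INT-767 4 the lowest for 9 of the 10 and for 2 of the 9. In that fit it was the lowest for 32.5% of all genes. Of 8 periportal markers 4 rose, *Cyp2f2*, *Sds*, *Hal* and *Gls2*, and of 9 pericentral markers none passed, with a median of -0.23. With the GC and length trend removed *Tat*, *Cps1* and *Asgr1* of the hepatocyte list passed, at 1.04, 0.86 and 0.67 on the log2 scale, and so did periportal *Aldh1b1*, at 1.03.

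Markers of other cells lay mostly below 0, and falls are again given on the log2 scale. Of 9 macrophage markers, *Cd68* and *Csf1r* fell by 1.16 and 1.14. Their list, in which *Lyz2* and *Cd5l* were the most abundant genes, was summed in each liver. This sum was 515, 497, 462 and 1112 CPM in INT-767 1 to 4 and 714 to 1005 CPM with vehicle. Of 9 stellate cell and myofibroblast markers, *Col1a1* fell by 2.96. The most abundant by mean level was *Col3a1* with vehicle and *Lum* with INT-767. The list summed to 312, 228, 373 and 599 CPM with INT-767 and 447 to 1157 CPM with vehicle. *Vwf* of 8 endothelial and *Csf3r* of 3 tested neutrophil markers fell by 1.31 and 1.49. *S100a8* and *S100a9* of the neutrophil list lay above 0, at 0.31 and 0.46, without passing. The neutrophil median was 0.31, or -0.33 with the GC and length trend removed. None of 8 cholangiocyte and 8 tested lymphocyte markers passed, with medians of -0.65 and -0.34. With the trend removed *Cftr* of the cholangiocyte and *Ptprc* of the lymphocyte list passed, at -1.02 and -0.63, and *Vwf* came to -0.74. No marker of any list was at 0 in all livers. The part of cell composition in the enzyme levels was not tested.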

How the data were processed

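Liver RNA of 7 vehicle and 4 INT-767-treated mice was measured by poly(A) RNA sequencing, and groups were taken from the sample labels. Per the labels and the study's methods, stranded mRNA libraries were run for 75 cycles on a NextSeq 500 and the authors aligned them to GRCm38 and Ensembl release 84 with STAR, of which the processing notes and the methods name different versions. The authors deposited 1 table of raw counts per gene, without normalization, of 46603 genes. Which program counted the reads, and any batch, is not given in the sources used here.

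Counts were analysed with edgeR 4.0.16 in R 4.3.3. Genes were kept by filterByExpr (minimum count 10, minimum total 15), scaled by TMM and tested with robust glmQLFit and glmQLFTest, treatment being the only term, with Benjamini-Hochberg adjustment over 13880 genes and a threshold of 0.05. Each mouse gave 1 library, so that *p* measures the spread between mice. The closest pair of libraries, Vehicle 5 and 6, differed by a median chi-square of 1.13 per gene and was not a copy. CPM per kilobase used the exon bases of GENCODE M21, which also gave GC content, positions and shared 75-base windows. Members, lists and the rule for named genes were chosen with earlier results of these data known. Named with values in every liver were, per family, the 5 called members of largest fold change and the 2 most abundant per length. Other tested members were given by fold change, some of them with group means and SD.

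Alternatives were RLE, upper-quartile and library-size scaling, other count filters, thinning to the smallest library, a replicate block, leaving out each liver, DESeq2 1.42.0, limma-voom 3.58.1 with and without sample weights, a threshold of 0.01, and a lowess offset (span 0.3) for GC content and transcript length, which covered 13835 genes. On simulated data with 200 of 13880 genes changed by 2 on the log2 scale, 92% of the changed genes and 10 others were called by edgeR. Figures were drawn with matplotlib 3.10.9. The values of 1 gene counted among the sex-biased liver genes are not reported here.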

Additional observations from a re-analysis of the deposited data

Results flagged for a closer look

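*Sult2a7* in Vehicle 4 stood apart from the other vehicle livers, at 1.62 CPM against 0.568 CPM in the next highest liver. The gap was 0.68 of the whole range of the 7 vehicle livers, where the limit for 7 samples is 0.568. With 40 tested members, chance alone would flag about 1 in 20 vehicle groups. The gene had 35 reads over all vehicle livers.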

How the results depend on the processing

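Every called member stayed above 0 under every alternative in which it was tested. Calls depended on the setting. Labels number the mice from 1 in both groups, but same-numbered livers did not deviate together (correlations of -0.69, 0.215, 0.148 and -0.482 for numbers 1 to 4), so that the numbers are not taken as pairs. With the replicate block, edgeR called 0 UGT, 0 SULT and 0 GST members, 0 pathway genes in either direction and 0 of all genes (lowest adjusted p of a member 0.165), and with the replicate block together with the GC and length offset also 0 of each, where *Sult1c2*, uncalled, turned to -0.0637. The offset alone called 3 SULT members. At a threshold of 0.01, 1 UGT, 2 SULT, 3 GST and 4 higher and 1 lower pathway genes passed. With sample weights limma-voom called 11 GST members and 10 lower pathway genes, DESeq2 called 10 lower pathway genes, and 3 were lower without the low-count filter. Scaling by library size alone moved the median of all genes to -0.22 and the calls to 331 higher and 1026 lower genes, beside 700 and 649 with TMM factors, with 13 members still called and 6 higher and 8 lower pathway genes. All genes called numbered 2811 by DESeq2 and 1885 with the offset.

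Leaving out 1 liver gave 1 (without Vehicle 5, Vehicle 6 or INT-767 2) to 7 (without Vehicle 1) UGT, 2 to 6 SULT, 4 to 10 GST, 4 to 17 higher and 1 to 8 lower pathway genes, with INT-767 2 left out giving the lowest count in each of these. Family sums kept ratios of 1.68 to 2.31 (UGT), 2.39 to 2.92 (SULT) and 1.70 to 2.09 (GST) in these fits.

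With 4 treated livers the exact Mann-Whitney p cannot go below 0.00606. Members under about 0.919 CPM in more than 7 livers were not testable at this depth.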
